A study of Mus musculus with 14 samples.

Results

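Of the 41934 genes listed at each age, 9 that handle thyroid hormone in the cell are described: the deiodinase genes Dio1, Dio2 and Dio3, the antisense RNA gene Dio3os, the transporter genes Slc16a10, Slco1c1, Slc7a5 and Slc7a8, and Crym, which encodes a T3-binding protein of the cytosol. They were taken by gene symbol from a list made with earlier results of these data known, and all 9 were found at both ages. The libraries came from whole brains of 14 individual male fetuses of C57BL/6J background. At E13.5 there were 4 Dio3+/+ and 2 Dio3-/- fetuses, and at E18.5 there were 3 Dio3+/+ and 5 Dio3-/- fetuses. The fetuses were littermates from Dio3+/- parents. In Dio3-/- animals point mutations inactivate the DIO3 enzyme in every tissue, while the Dio3 mRNA is still made and can be counted.

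The levels reported are the authors' mean normalized count of each gene, which pools all libraries of an age and therefore both genotypes. No value by genotype is given here, so the labels could not be checked against Dio3 in single libraries, and no difference between the genotypes or the ages was tested. The tables of the ages were normalized separately, and the Dio3-/- genotype made up 33.3% of the E13.5 libraries and 62.5% of the E18.5 libraries. Age and this share cannot be told apart in any comparison of the ages. To set the ages side by side, each mean was divided by the sum over all genes, which was 28582629 at E13.5 and 24565726 at E18.5, and is given as a share in ppm (parts per 1000000). To set genes side by side, the share was divided by the kilobases of annotated exon. In whole brain, fewer cells of a type and less RNA per cell cannot be told apart.

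Thyroid hormone circulates mostly as T4, and cells turn it into the more active T3 by removing an iodine from its outer ring. DIO2 carries out this step in the brain, chiefly in glia, while DIO3 removes an inner ring iodine and so inactivates both T4 and T3. Because the hormones do not cross membranes freely, transporters at the blood-brain barrier and on neural cells also set how much reaches the nucleus.

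The deiodinases are selenoproteins: a TGA codon, normally a stop, is read as selenocysteine in their active centre. The stretches around this codon are shown because they mark what the 3 enzymes have in common at the catalytic residue. The codon lies in the coding part of an exon in each gene, on GRCm38. In Dio1 it is at chr4:107297700-107297702 on the minus strand and is codon 126 of 257. In Dio2 it is at chr12:90729823-90729825 on the minus strand and is codon 130 of 266, with a second TGA annotated as selenocysteine at codon 263. In Dio3 it is at chr12:110279739-110279741 on the plus strand and is codon 170 of 304, in a gene of 1 exon. The coding strand is written 5′ to 3′ from the GENCODE transcripts, with 27 bases on each side and the selenocysteine codon in capitals.
Dio1: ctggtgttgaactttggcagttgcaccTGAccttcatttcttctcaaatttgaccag
Dio2: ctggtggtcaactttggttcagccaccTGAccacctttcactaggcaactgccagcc
Dio3: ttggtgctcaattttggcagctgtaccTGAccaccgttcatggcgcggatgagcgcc
Over these 57 bases Dio2 and Dio3 had 36 bases in common (63.2%), Dio1 and Dio3 had 32 (56.1%) and Dio1 and Dio2 had 31 (54.4%). The codon itself, on which the stretches were aligned, counts as common in every pair, and no background identity was computed.

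The level of Dio2, the activating enzyme of brain, was much higher in the E18.5 table than in the E13.5 table, whereas Dio3, the inactivating enzyme, differed by less than 2-fold and Dio1, the activating enzyme of liver and kidney, was close to absent at both ages. Of the transporters, Slco1c1 and Slc7a8 had a higher share at E18.5, Slc16a10 had a lower one and Slc7a5 was the most abundant gene of the group at both ages. A ratio of the shares, E18.5 over E13.5, was computed for 19455 genes with a mean of at least 10 at either age and above 0 at both. Of these genes 13.47% had a share at least 2 times higher at E18.5 and 7.62% a share at least 2 times lower. Of the 8 deiodinase, transporter and Crym genes with a ratio, 3 were at least 2 times higher (Dio2, Slco1c1 and Slc7a8), 1 was at least 2 times lower (Slc16a10) and 4 were neither. All 8 had a mean of at least 10 at each age, and Dio1, with no ratio, was the exception among the 9. The median log2 ratio was 0.53 over the 8 genes and -0.07 over all 19455. With so few genes these counts are a description. With the authors' means compared unscaled, the shares of all genes became 10.7% higher and 11.6% lower.

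**Figure D1:**
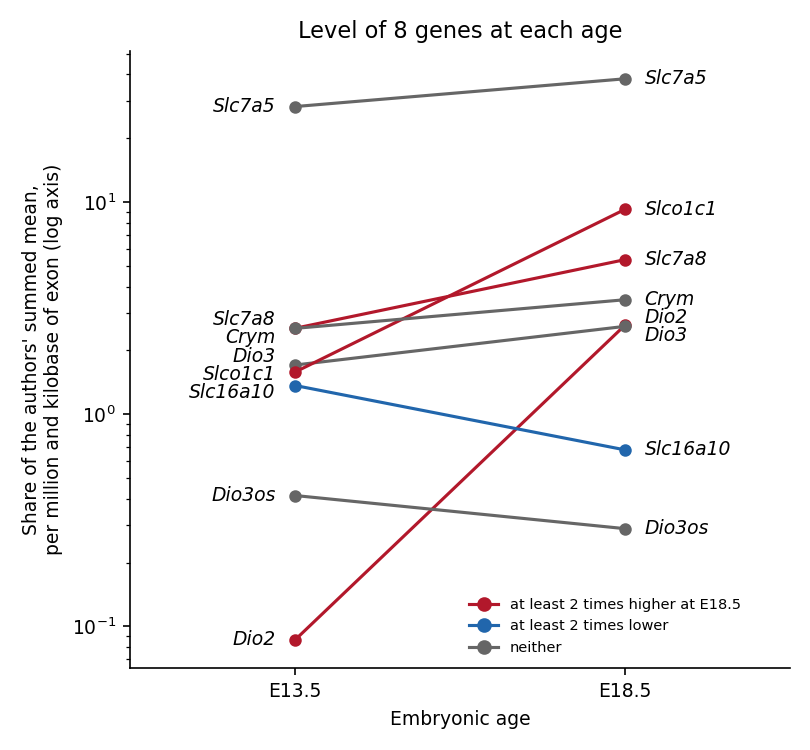
Level of 8 genes at E13.5 and E18.5, as the share of the authors' summed mean in ppm per kilobase of exon, on a log axis. Each point is 1 pooled mean over 6 (E13.5) or 8 (E18.5) libraries of both genotypes, with no error bar because a pooled mean has none. The line of Dio2 starts below all others at 0.0866 and meets that of Dio3 near 2.6, while Slc7a5 stays on top from 28.2 to 38.1. Dio1, at 0 and 0.0048, is not drawn.

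Dio2 (ENSMUSG00000007682.6) lies on the minus strand at chr12:90724552-90738438 and has 5815 exon bases. Its mean normalized count was 14.4 at E13.5 and 375 at E18.5. As a share the level was 0.503 ppm at E13.5 and 15.3 ppm at E18.5. The share at E18.5 was 30.3 times that at E13.5, a log2 ratio of 4.92, which placed it at percentile 99.9 of all genes with a ratio. Adjusted counts of the single E13.5 libraries could be worked out from the low mean, without their labels. Over these 6 libraries the normalized count of Dio2 was 10.1 in the lowest, 15.6 at the median and 17.6 in the highest, from 87 reads in all. All 6 libraries were low and near each other, and the counting intervals (exact Poisson, 95%) of the lowest, 4.84 to 18.6, and the highest, 10.4 to 27.7, overlapped. With the counting error of the 87 reads the fold lay between 24.6 and 37.9. These intervals cover counting error only and not the spread between fetuses. The pooled share at E18.5 was 24.9 times that of the highest E13.5 library. Per kilobase of exon Dio2 went from 0.0866, at percentile 0.772 of genes with a mean of at least 10, to 2.63, at percentile 44.3. Exons of Dio2 share 100 bases with the antisense gene Gm26512, and since the counting ignored strand, reads there cannot be told apart.

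The promoter of Dio2 is shown because this gene had the largest ratio of the group. It holds the 250 bases before the RefSeq start, chr12:90739039-90739288 on the minus strand of GRCm38.p6, which lies upstream of the GENCODE gene. Capitals mark a TGACGTCA (the cAMP response element, the same on both strands) and a TATAAA (the TATA box).
Dio2 promoter: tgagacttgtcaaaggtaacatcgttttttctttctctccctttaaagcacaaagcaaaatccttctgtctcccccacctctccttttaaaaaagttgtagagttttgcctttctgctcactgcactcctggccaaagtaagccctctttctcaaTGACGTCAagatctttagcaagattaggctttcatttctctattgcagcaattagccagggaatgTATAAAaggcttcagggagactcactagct
The letters TGACGTCA stand 95 to 88 bases before the start and TATAAA 30 to 25 bases before it. On either strand TGACGTCA is found in 1.55% and TATAAA in 12.4% of 32851 promoters of the same length. The GC content is 41.6%, against a median of 52.4% over all promoters. The other motifs searched on both strands were CCAAT (the CCAAT box, in 33.8% of all promoters), AGGTCA (a nuclear receptor half-site, in 14%) and GGGCGG (the GC box, in 32.7%), and none of these letters occur in these 250 bases. A match of letters is a description and not a bound site.

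Dio3 (ENSMUSG00000075707.5) lies on the plus strand at chr12:110279068-110281097 in 2030 exon bases. Its mean normalized count was 99.0 at E13.5 and 129 at E18.5. The share in ppm was 3.46 at E13.5 and 5.27 at E18.5, a fold of 1.52 and a log2 ratio of 0.61, at percentile 78.7 of all genes. As the later pool holds the larger share of Dio3-/- fetuses, this fold gives no direction for Dio3 within either genotype. Over the 6 unlabelled E13.5 libraries the normalized count was 57.5 in the lowest, 114 at the median and 121 in the highest, from 607 reads. These counts were the single match at the tolerance used, but a looser one gave more than 1 set, so that the values of single libraries are less certain for Dio3 than for Dio2. The counting interval of the lowest library, 43.8 to 74.2, and that of the highest, 100 to 145, did not overlap. These 2 libraries were picked as the extremes of the 6, and the intervals treat adjusted counts as reads. A difference between libraries was therefore not tested. The pooled share at E18.5 was 1.24 times that of the highest E13.5 library and 2.62 times that of the lowest. The fold of 1.52, with a counting interval of 1.405 to 1.65 from the E13.5 reads, is therefore smaller than the range between single libraries at E13.5. Counts of single E18.5 libraries could not be worked out, as the mean was too high.

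The levels of Dio3 and Dio2 were far apart at E13.5 and almost equal at E18.5. Per kilobase of exon Dio3 was 19.7 times Dio2 at E13.5. At E18.5 the per-kilobase levels of Dio3 and Dio2 were 2.60 and 2.63, a ratio of 0.988. Dio1 (ENSMUSG00000034785.14, minus strand, chr4:107291465-107307169) had no read in any of the 6 libraries at E13.5, which allows a mean of up to 0.605 (3 reads over the group). At E18.5 Dio1 had 1 read in each of 2 of the 8 libraries, a mean of 0.232, and the exact Poisson interval of these 2 reads is 0.242 to 7.22 reads.

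Dio3os (ENSMUSG00000113581.1), a noncoding RNA gene read from the strand opposite to Dio3, lies at chr12:110275385-110278172 on the minus strand, 895 bases from Dio3. Its mean normalized count was 19.9 at E13.5 and 11.95 at E18.5. The share in ppm was 0.697 and 0.487, a log2 ratio of -0.52, at percentile 21.3 of all genes. Over the 6 E13.5 libraries the normalized count was 11.7 in the lowest, 15.4 at the median and 32.9 in the highest, from 122 reads. Over the 8 E18.5 libraries it was 0 in the lowest, 12.8 at the median and 20.1 in the highest, from 98 reads. In these sets of counts the libraries of the ages, normalized separately, overlapped between 11.7 and 20.1. The E18.5 set gave 1 library no Dio3os read, which allows a normalized count of up to 3.17 (3 reads in that library). On simulated data a match for Dio3os at E18.5 was not always single, nor always a sign of true counts. The E18.5 values of single libraries are therefore less certain. The ratio of the pooled shares, 0.698, had a counting interval of 0.585 to 0.841 from the E13.5 reads and 0.567 to 0.851 from the E18.5 reads. Per kilobase Dio3 was 4.12 times Dio3os at E13.5 and 8.98 times at E18.5. Exons of Dio3os hold 82 bases of the microRNA gene Mir1247 on the same strand, and no exon of Dio3os overlaps Dio3.

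**Figure D2:**
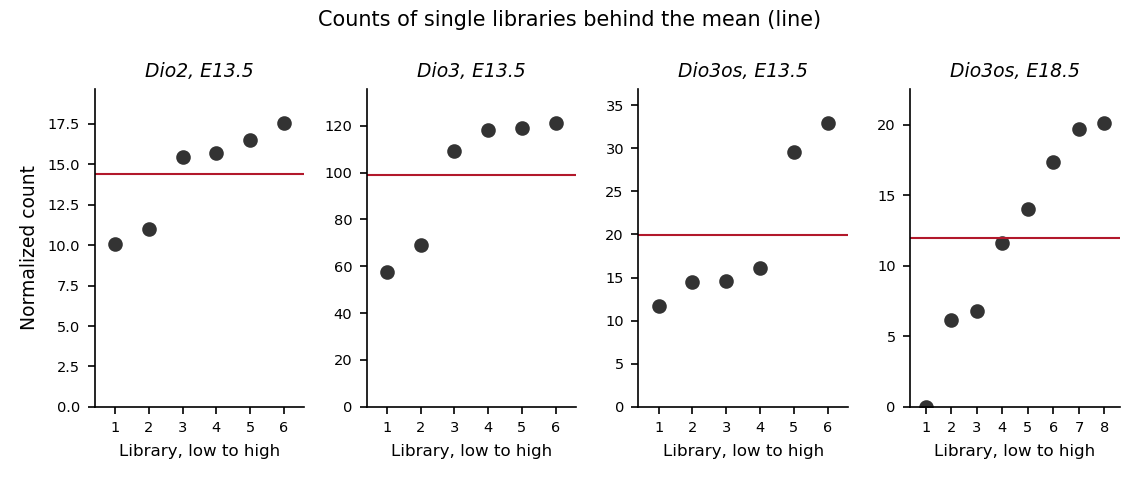
Normalized count of each library, from low to high, for Dio2, Dio3 and Dio3os at E13.5 (6 libraries) and Dio3os at E18.5 (8 libraries), with the authors' mean as a line. The genotype of each point is unknown, and library numbers differ between panels. Points of single libraries are less certain for Dio3 and for Dio3os at E18.5. Dio2 spans 10.1 to 17.6, Dio3 57.5 to 121, and Dio3os 11.7 to 32.9 at E13.5 and 0 to 20.1 at E18.5.

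Slco1c1 (ENSMUSG00000030235.17, plus strand, chr6:141524368-141570177) encodes the organic anion transporter that carries T4 across brain endothelium and into astrocytes. Its mean normalized count was 234 at E13.5 and 1176 at E18.5. The share in ppm was 8.20 and 47.9, a fold of 5.84 and a log2 ratio of 2.55, at percentile 97.8 of all genes. Per kilobase it was the fifth of the 9 genes at E13.5, at 1.58, and the second at E18.5, at 9.23. Its promoter is shown as that of the transporter with the largest ratio. It holds the 250 bases before the RefSeq start, chr6:141524104-141524353 on the plus strand of GRCm38.p6, and the capitals mark the single match among the 5 motifs, a CCAAT on the minus strand 164 to 160 bases before the start.
Slco1c1 promoter: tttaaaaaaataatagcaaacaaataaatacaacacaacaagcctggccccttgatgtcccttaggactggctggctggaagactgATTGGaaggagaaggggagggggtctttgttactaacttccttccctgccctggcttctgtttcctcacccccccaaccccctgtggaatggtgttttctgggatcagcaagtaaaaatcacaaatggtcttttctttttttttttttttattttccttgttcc
The GC content is 42.8%, and no CG pair occurs in it, against a median of 6 CG pairs over all promoters.

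Slc16a10 (ENSMUSG00000019838.11, minus strand, chr10:40033532-40142258) encodes MCT10, a carrier of aromatic amino acids that also takes T3 and T4. Its mean normalized count was 287 at E13.5 and 123 at E18.5. The share in ppm was 10.1 and 5.001, a log2 ratio of -1.01, at percentile 7.54 of all genes. This ratio is a fold of 2.01 lower at E18.5 and lies just past the threshold of 2, and it was -0.94 when the median gene was set to a ratio of 1. Per kilobase Slco1c1 was 1.16 times Slc16a10 at E13.5 and 13.6 times at E18.5. The promoter of Slc16a10 has a GC content of 64.4% and holds GGGCGG 3 times and CCAAT 2 times. Those of Slc7a8, Dio3 and Dio3os also hold GGGCGG, and those of Dio1, Dio2 and Slco1c1 do not. The motif thus did not follow the direction of the ratios.

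Slc7a5 and Slc7a8 encode LAT1 and LAT2, exchangers of large neutral amino acids that also carry thyroid hormones and work as a pair with the heavy chain made by Slc3a2. Slc7a5 (ENSMUSG00000040010.10, minus strand, chr8:121881150-121907694) had a mean normalized count of 2987 at E13.5 and 3470 at E18.5. Its share in ppm was 105 and 141, a log2 ratio of 0.43, at percentile 74.0 of all genes. Slc7a8 (ENSMUSG00000022180.7, minus strand, chr14:54722209-54781946) had a mean of 364 and 658. Its share in ppm was 12.7 and 26.8, a fold of 2.11 and a log2 ratio of 1.07, which fell under the threshold, at 0.86, when the authors' means were compared unscaled. Per kilobase Slc7a5 was 11.1 times Slc7a8 at E13.5 and 7.12 times at E18.5. Slc7a5 made up 70.3% of the summed share of the 9 genes at E13.5 and 55.7% at E18.5, and Slco1c1 made up 5.51% and 18.9%.

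Crym (ENSMUSG00000030905.5, minus strand, chr7:120186380-120202111) encodes mu-crystallin, which holds T3 in the cytosol. Its mean normalized count was 246 at E13.5 and 289 at E18.5. The share in ppm was 8.61 and 11.7, a log2 ratio of 0.45, at percentile 74.4 of all genes.

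By level per kilobase of exon the order at E13.5 was Slc7a5 (28.2), Slc7a8 (2.54), Crym (2.54), Dio3 (1.71), Slco1c1 (1.58), Slc16a10 (1.37), Dio3os (0.414), Dio2 (0.0866) and Dio1. At E18.5 it was Slc7a5 (38.1), Slco1c1 (9.23), Slc7a8 (5.35), Crym (3.46), Dio2 (2.63), Dio3 (2.60), Slc16a10 (0.680), Dio3os (0.289) and Dio1 (0.0048). Slc7a8 and Crym at E13.5, and Dio2 and Dio3 at E18.5, were neighbours whose levels were almost equal. Neighbours were not tested against their spread, because most of the means do not give single libraries. Slc7a5 stood at percentile 92.1 of genes with a mean of at least 10 at E13.5 and at 95.02 at E18.5, whereas the other 7 with a percentile were between 0.772 and 43.98 at E13.5 and between 8.79 and 72.6 at E18.5.

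**Figure D3:**
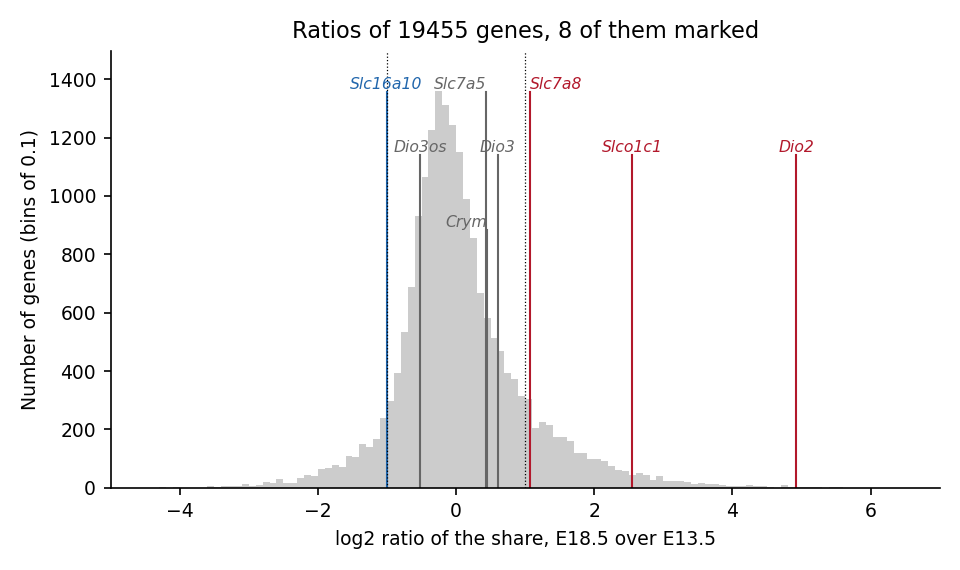
Histogram of the log2 ratio of the share, E18.5 over E13.5, for 19455 genes in bins of 0.1, with 8 genes marked by lines and a 2-fold difference by dotted lines. Dio2 at 4.92 and Slco1c1 at 2.55 lie in the right tail, Slc7a8 at 1.07 and Slc16a10 at -1.01 lie next to the dotted lines, and the other 4 lie between -0.52 and 0.61.

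Other genes of thyroid hormone handling were counted from lists of related function. Of 9 further genes, for transporters and the LAT partner subunit, 8 had a ratio, 1 was at least 2 times higher at E18.5 and none was lower, with a median log2 ratio of 0.56. The one higher was Slco1a4, an organic anion transporter of brain endothelium, with a share in ppm of 0.910 and 5.09 and a log2 ratio of 2.48. Slc3a2, the LAT heavy chain, had a share of 76.4 and 86.2, a log2 ratio of 0.17. Of 4 genes of iodide recycling and plasma carriers, 2 had a ratio and 1 was higher, with a median of 0.72. Of 4 genes that conjugate thyroid hormone, only the sulfotransferase gene Sult1a1 had a ratio, with a share of 1.24 and 5.59 and a log2 ratio of 2.20. Another of them, Ugt1a1, shares 58.9% of its exon bases with related genes on the same strand, where reads cannot be told apart.

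All 8 genes of selenoprotein synthesis, which every deiodinase needs, were under the 2-fold threshold, with a median log2 ratio of -0.25. Among them Secisbp2, the protein that binds the selenocysteine insertion element, had a share of 24.8 and 19.5, a log2 ratio of -0.35. Of 6 genes that add or remove ubiquitin on DIO2, 5 were found and none of the 5 passed the 2-fold threshold, with a median of -0.07. Wsb1, the adaptor that marks DIO2 for degradation, had a share of 288 and 182, a log2 ratio of -0.67. In the imprinted Dlk1-Dio3 domain of chromosome 12, 5 of 6 neighbours of Dio3 had a ratio and 1 was at least 2 times lower, Dlk1, with a share of 30.1 and 5.34 and a log2 ratio of -2.49. The noncoding RNA genes Meg3, Rian and Mirg had log2 ratios of 0.36, 0.51 and -0.36, and Rtl1 was listed at 0 at both ages.

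Markers of some of the cells in which these genes are known to be active were read beside them. Those of choroid plexus and pituitary are given further below. Of 5 astrocyte markers 4 were at least 2 times higher in the later table. Their median log2 ratio was 1.93, with a summed share of 144 and 326 ppm, and Gfap and Aqp4, at 6.95 and 4.73, had the largest ratios. Gfap had a mean of 4.71 at E13.5 and so passed the minimum of 10 only through E18.5. Of 5 endothelial markers none passed the 2-fold threshold, with a median of 0.00 and a summed share of 241 and 254. Of 5 progenitor and radial glia markers 2 were lower, with a median of -0.91 and a summed share of 1659 and 780. Of 3 tanycyte markers, one of which is Crym itself, 1 was lower (Rax, -2.96). Rax, with a mean of 3.31 at E18.5, passed the minimum only through E13.5. The part of cell composition in the ratios of Dio2 and Slco1c1 was not tested.

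**Figure D4:**
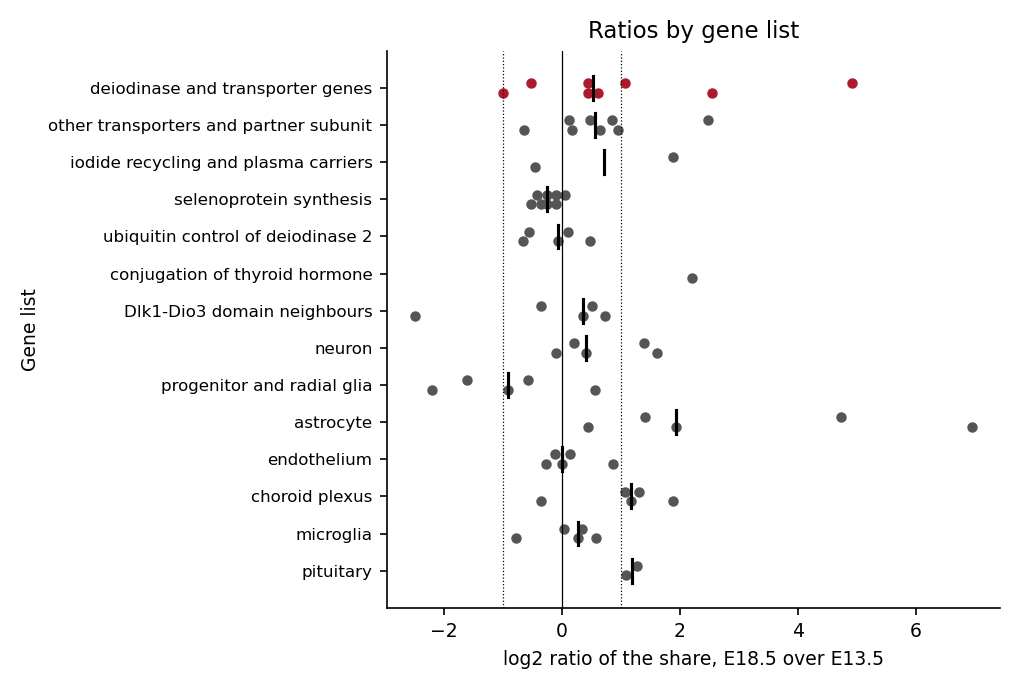
Log2 ratio of the share, E18.5 over E13.5, by gene list. Each point is 1 gene with a ratio, bars are medians of lists with more than 1 gene, the first row holds the 8 deiodinase, transporter and Crym genes, and dotted lines mark a 2-fold difference. The 8 genes spread from -1.01 to 4.92, those of selenoprotein synthesis stay near 0, and the astrocyte markers reach 6.95. That last point is Gfap, whose E13.5 mean was under the minimum of 10.

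Defining genes of other cell types were checked for the labelled tissue. Neuron markers were abundant, with a summed share of 5598 and 6898 ppm, and 2 of 5 were higher at E18.5. Of 5 choroid plexus markers 4 were higher (summed share 171 and 561). Among these 4 is the plasma carrier gene already counted as higher above, which made up most of both sums. Of 5 microglia markers none passed the threshold (43.4 and 51.3) and of 5 erythroid markers 3 were lower (251 and 135). Of 5 pituitary markers 2 had a ratio and both were higher (2.82 and 45.5), and the growth hormone gene Gh was listed at 0 at E13.5 with a mean of 963 at E18.5. Thyroid markers summed to 13.7 and 10.3, with Slc5a5 and Tshr higher and Pax8 lower, and liver markers to 9.73 and 4.16, with Afp lower.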

How the data were processed

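RNA of whole brains from 14 male fetuses was sequenced after removal of ribosomal RNA, in different sequencing batches. Per the methods and the submitters' processing notes, the authors trimmed reads with cutadapt 3.1, aligned them to GRCm38 with STAR 2.5.3a, used HTSeq to count reads per gene, ignoring strand, adjusted counts for batch with ComBat-seq, and ran DESeq2 1.30.1 in R 4.0.3 within each age. The adjustment can change counts of single libraries, and which library belongs to which batch is not given in the sources used here.

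The authors' deposited mean normalized count is a signal: counts divided by size factors, then averaged over every library of an age. The 2 tables also hold the authors' own comparison of the genotypes (log2 fold change, its standard error, a statistic, p-values and a significance mark). These columns were not used, so no genotype result is given. The design allowed a count test only for values of single libraries mapped by name, and no test was made.

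Shares in ppm, shares per kilobase of exon (GENCODE M21, which matched 41897 of the 41934 genes by identifier, 37 not) and ratios between the ages were computed with pandas 2.3.3 in Python 3.11.15. A fold was counted at 2, for genes with a mean of at least 10 at either age. Where symbols were shared by several genes, which holds for 89 symbols, the highest mean was taken. The genes named are the 9 genes of the rule and genes of lists of related function and of cell type markers. These genes and lists were chosen with earlier results of these data known. Promoter sequences are those of RefSeq, with 7 of the 9 genes matched by symbol.

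The means are written with up to 15 digits, and the smallest are those of 1 read in 1 library: 6 such steps at E13.5 and 8 at E18.5, which give size factors of 0.827 to 1.15 and 0.947 to 1.17. For low means a single set of whole adjusted counts gave the written mean, with no library above 3 times the mean or 8 reads, whichever was more, and these sets are given without labels. The tolerance of this match was set after the remainders had been seen (a looser one gave more than 1 set for Dio3), and on simulated data a match was not always single, nor always a sign of true counts, for Dio3 and for Dio3os at E18.5. For these, values of single libraries are less certain. Where the mean was too high, the depth and spread of single libraries are unknown.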

Additional observations from a re-analysis of the deposited data

How the results depend on the processing

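Under alternatives, 60 of 63 log2 ratios kept their sign and their side of the 2-fold threshold. The counts of genes at least 2 times higher and lower at E18.5 were as reported under 7 of 10 alternatives each. These totals include settings that left every ratio identical: no minimum mean, a minimum mean of 50, and rows of a symbol summed. A minimum cannot alter a ratio, so agreement under these settings is no sign of robustness. The count of higher genes, 3 as reported, was 2 with the authors' means unscaled, 4 at a fold of 1.5 and 2 at a fold of 3. The share of all genes that were higher was 10.7%, 21.8% and 6.93% under these settings. No ratio changed sign. The count of genes at least 2 times lower at E18.5, which is Slc16a10 alone, was 0 when the median gene was set to a ratio of 1, 0 at a fold of 3 and 0 with a pseudocount of 1 ppm. The log2 ratio of Slc16a10 was -0.94 with the median gene at 1 and -0.88 with the pseudocount. That of Slc7a8 was 0.86 with the authors' means unscaled, a setting that moved the median of all genes by -0.22. With the longest transcript as length 5 genes changed place in the order at E13.5. Without division by length 3 genes did at E13.5 and 2 at E18.5. No paired analysis was possible, because the ages come from different fetuses and the deposited means carry no replicate numbers. Leaving out a library was possible only where counts of single libraries had been worked out, a choice made after seeing the data. It gave log2 ratios of 4.84 to 4.99 for Dio2, 0.49 to 0.67 for Dio3, and -0.63 to -0.32 (E13.5) and -0.67 to -0.33 (E18.5) for Dio3os. For Dio3, and for Dio3os at E18.5, these ranges rest on less certain counts of single libraries.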

Other observations

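The 6 libraries of E13.5, whose genotypes are unknown here, held normalized counts of Dio3 of 57.5, 69.0, 109, 118, 119 and 121, so that 2 lay apart from the other 4. The 2 libraries lowest in this Dio3 set were also the 2 lowest in Dio3os, which rests on the same less certain counts. In Dio3os the higher of these 2, at 14.5 from 12 reads, was in a near tie with the next library. That library was at 14.7 from 16 reads, within counting error. Neither of the 2 libraries lowest in the Dio3 set was among the 2 lowest in Dio2. The counts of Dio3os at E13.5 were 11.7, 14.5, 14.7, 16.1, 29.6 and 32.9, with the 2 highest apart from the rest, and those of Dio2 were 10.1, 11.0, 15.4, 15.7, 16.5 and 17.6. At E18.5 the 8 counts of Dio3os, which are less certain, were 0, 6.15, 6.75, 11.6, 14.0, 17.3, 19.7 and 20.1. These are values without labels, and no group was formed from them.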
